A study of Bos taurus with 8 samples.

Results

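The circadian clock genes examined here are *ARNTL*, *CLOCK*, *PER1*, *PER2*, *PER3*, *CRY1*, *CRY2*, *DBP*, *TEF* and *BHLHE40*. They were found in the table of read counts by gene symbol, and 9 of the 10 matched a row among 24596 counted genes. No row matched the symbol *PER3*, which is not analysed here. The counts come from wild-type chondrocytes of the knee joints of calves that were 1 to 2 weeks old. Superficial zone chondrocytes (SZCs) came from the slice at the joint surface and deep zone chondrocytes (DZCs) from the slice nearest the bone, with the tissue between them discarded. Both slices were cut from the same cores. The superficial slices of a joint were pooled, and its deep slices were pooled separately. SZCs and DZCs were released by enzyme digestion and cultured for 3 days in medium with serum before RNA was taken, with 2 libraries of each zone. These are primary cultures, and the sources used here do not say whether same-numbered libraries share a calf.

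The clock is a feedback loop that runs in nearly every cell and repeats about once a day. ARNTL (also called BMAL1) and CLOCK pair and switch on genes that carry an E-box, among them the *PER* and *CRY* genes, whose proteins return to the nucleus and shut the pair off. *DBP* and *TEF*, also driven through E-boxes or related elements, encode transcription factors that carry the rhythm to other genes, and BHLHE40 (DEC1) represses at the same E-boxes. Chondrocytes keep a clock of their own, and mice that lose *Arntl* in chondrocytes develop degeneration of the articular cartilage. Each library was taken at a single time and the hour of harvest is not given in the sources used here, so a change in the mean level of a rhythmic gene and a change in its phase cannot be told apart in these data. In RNA from whole cultures, fewer cells of a type and less RNA per cell likewise cannot be told apart.

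The replicates are stated to be biological duplicates, and p-values measure only the spread between these 4 libraries. Library totals lay between 19918970 and 21890549 counts, and levels are given as CPM, a library's counts scaled to a common total with trimmed mean of *M* values (TMM) factors. A floor of 3 counts was at most 0.187 CPM in any library. All 8 articular chondrocyte markers were detected in every library, and all 6 superficial zone markers passed the test towards SZCs, with *PRG4* (lubricin) at 3166 and 2024 CPM in SZCs against 15.3 and 61.5 CPM in DZCs. The DZC libraries stood apart from each other, with *COL2A1* taking 24.5% of the counts of DZC replicate 1 and 12.9% of those of DZC replicate 2. The 8 dividing cell markers summed to 210 and 240 CPM in the SZC libraries, but to 41.8 CPM in DZC replicate 1 and 341 CPM in DZC replicate 2. The 8 hypertrophic and bone markers summed to 112 and 107 CPM in SZCs, and to 26.6 and 287 CPM in the same order of DZC libraries, with *COL10A1*, *IBSP* and *MMP13* at 0 counts in DZC replicate 1. *SPP1* alone made up 108 and 102 CPM of the SZC sums, and 18.9 and 201 CPM of the sums of DZC replicates 1 and 2. *RUNX2* was at 1.59 and 3.66 CPM in SZCs and at 7.47 and 17.2 CPM in DZCs. *MMP13* was also at 0 counts in both SZC libraries. The 5 fibroblast markers summed to 12666 and 17555 CPM in SZCs, and to 2798 and 10598 CPM in DZCs. The 5 endothelial markers summed to between 3.86 and 10.6 CPM and the 6 immune markers to between 6.35 and 27.2 CPM, with *MS4A1* at 0 counts in every library. The part of these cell types in the clock results was not tested.

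None of the 9 clock genes differed between SZCs and DZCs at a false discovery rate (FDR) of 0.05. By the exact test of edgeR on all genes, 0 of 9 passed, where 2.93% of the 12857 genes tested did. At an unadjusted p-value under 0.05 the count in the exact test was also 0 of 9, against 9.09% of all genes tested. That count was 1 of 9 (*PER1*) in the quasi-likelihood fit with the replicate number as a block and 2 of 9 (*PER1* and *CRY2*) with libraries scaled by their totals alone, where 1648 and 1124 of the 12857 genes were under that p. The quasi-likelihood test of edgeR passed 0 of 9 and 0% of all genes, and DESeq2 passed 0 of 9 and 3.09% of all genes. All 9 genes were among those kept by the filter on low counts. Their log2 fold changes, SZC over DZC, ran from -0.23 for *BHLHE40* to 0.82 for *PER1*, with a median of 0.17 against -0.04 for all genes tested, and 6 of the 9 were above 0. Counting error was small beside this range, since the lowest count of any of the 9, 109 for *CLOCK*, has a counting error of 9.58%. In 3 of the 9, *PER1*, *CRY2* and *TEF*, both SZC libraries lay above both DZC libraries, as in 21.0% of all genes tested. In 0 of the 9 did both DZC libraries lie above both SZC libraries, as in 20.5% of all genes tested.

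**Figure D1:**
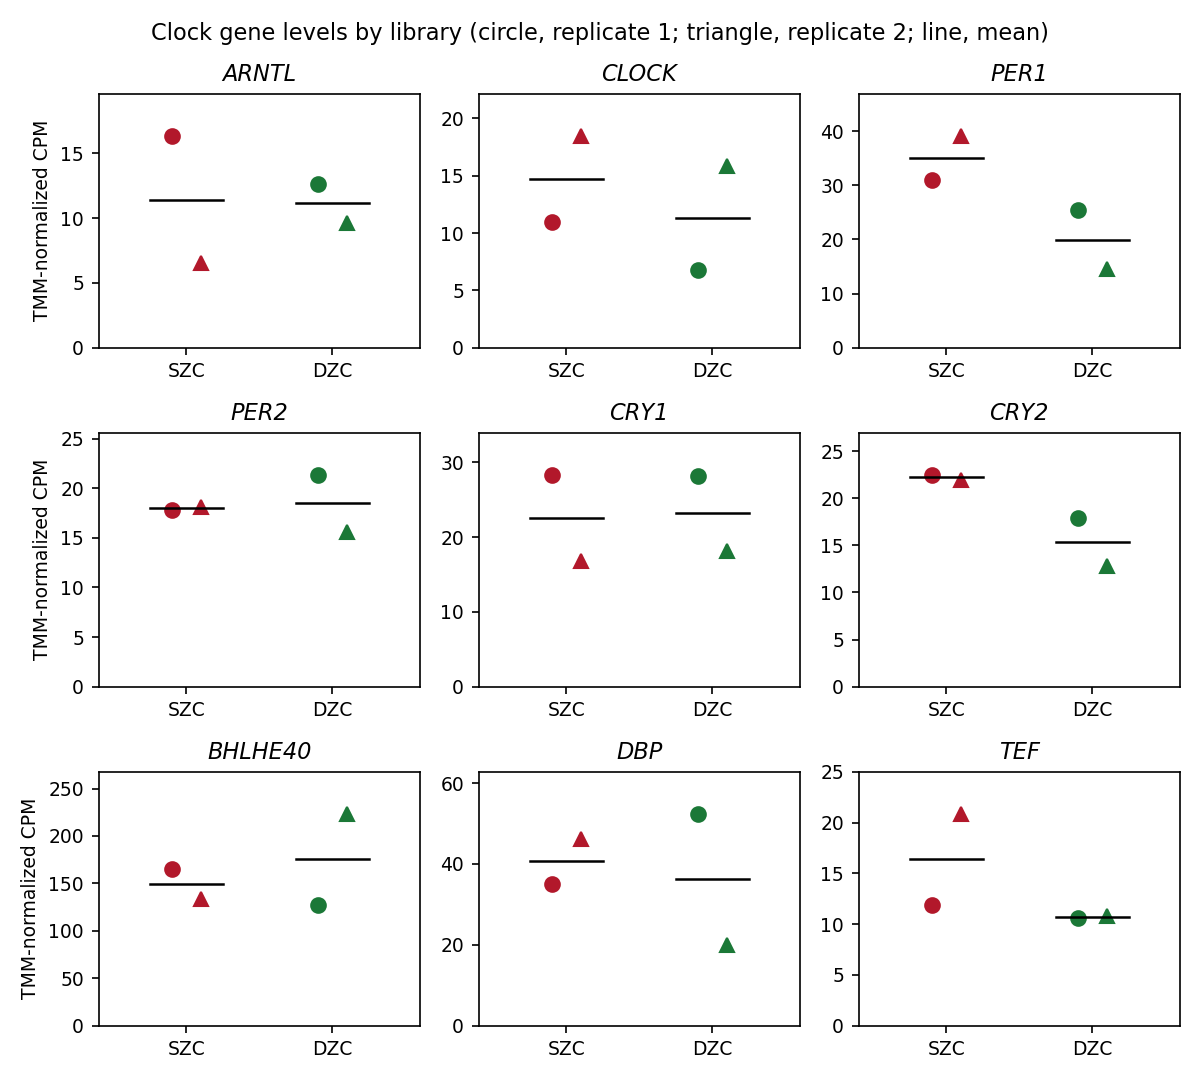
TMM-normalized CPM (vertical axes, each from 0) of the 9 clock genes in each library, with SZCs in red, DZCs in green, circles for replicate 1, triangles for replicate 2 and a line at the mean of each zone. The zones separate for *PER1*, *CRY2* and *TEF* and overlap for the other 6 genes.

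Of the activators, *ARNTL* (ENSBTAG00000013029), the partner that the clock cannot run without, was at 16.4 CPM in SZC replicate 1 and 6.51 CPM in SZC replicate 2. It was at 12.6 CPM in DZC replicate 1 and 9.64 CPM in DZC replicate 2. Both DZC values fell between the SZC values, so the zones overlapped completely. SZCs over DZCs gave a log2 fold change of 0.04 ± 0.58 (SE, edgeR FDR of 1), and the 95% interval spans from 0.467-fold to 2.26-fold. Leaving out SZC replicate 1 gave -0.78 and leaving out SZC replicate 2 gave 0.55, so the direction depended on which SZC library was kept. Without DZC replicate 2 it was -0.13.

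*CLOCK* (ENSBTAG00000044044), the second member of the activating pair, was at 10.9 and 18.5 CPM in SZC replicates 1 and 2 and at 6.78 and 15.8 CPM in DZC replicates 1 and 2. In each zone the higher value was in replicate 2, and the zones overlapped. The fitted log2 fold change of 0.38 ± 0.58 (SE) had an edgeR FDR of 1 and an interval from 0.593-fold to 2.85-fold. It was 0.71 without SZC replicate 1, -0.05 without SZC replicate 2, -0.10 without DZC replicate 1 and 1.13 without DZC replicate 2, where the FDR of edgeR's exact test was 0.0509 in a fit that called 20.7% of all genes.

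Of the repressors, *PER1* (ENSBTAG00000003889) is a period gene that is also induced directly by cAMP and glucocorticoid signals, and it had the smallest p-value of the 9. It was at 31.0 and 39.1 CPM in the SZC libraries and at 25.4 and 14.5 CPM in the DZC libraries, so every SZC value lay above every DZC value. SZCs were at 35.1 ± 5.72 CPM (SD, n = 2) and DZCs at 19.96 ± 7.75 CPM (SD, n = 2). On the log2 scale the difference was 0.82 ± 0.43 (SE), a 1.76-fold difference with an interval from 0.984-fold to 3.15-fold. The unadjusted p of edgeR's exact test was 0.0601 and the FDR 0.603. Without DZC replicate 1 the log2 fold change was 1.28 and the gene passed (edgeR FDR of 0.00307), in a fit that called 6.67% of all genes and assumes that the single DZC library left varies as the SZC libraries do. With each of the other libraries left out it lay between 0.48 and 0.96 and the FDR was at least 0.306.

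*PER2* (ENSBTAG00000001879), whose protein with CRY forms the core of the repressing complex, differed least between the SZC replicates of the 9 genes, at 17.8 and 18.1 CPM. The DZC libraries lay on either side, at 21.3 and 15.6 CPM. Between the zones the log2 fold change of *PER2* was -0.04 ± 0.39 (SE, edgeR FDR of 1), with an interval from 0.573-fold to 1.65-fold. Without DZC replicate 1 it was 0.21.

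*CRY1* (ENSBTAG00000010149) and *CRY2* (ENSBTAG00000021223) encode the cryptochromes, the strongest inhibitors of the ARNTL and CLOCK pair. *CRY1* was at 28.3 and 16.8 CPM in SZCs and at 28.2 and 18.2 CPM in DZCs, almost the same pair of values in each zone. For *CRY1* the log2 fold change was -0.04 ± 0.45 (SE, edgeR FDR of 1) with an interval from 0.525-fold to 1.81-fold, and it was 0.29 without SZC replicate 2 or 0.32 without DZC replicate 1. *CRY2* was at 22.5 and 22.0 CPM in SZCs and at 17.9 and 12.8 CPM in DZCs, without overlap. This came to 0.54 ± 0.39 (SE) on the log2 scale, or 1.45-fold with an interval from 0.853-fold to 2.47-fold and an edgeR FDR of 0.851. With each library left out in turn the log2 fold change of *CRY2* lay between 0.33 and 0.80, and the gene passed the threshold in none of these 4 fits.

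*BHLHE40* (ENSBTAG00000009863), which also responds to hypoxia and to many extracellular signals, was at 165 and 133 CPM in SZCs and at 127 and 223 CPM in DZCs. The DZC libraries were the lowest and the highest of the 4. *BHLHE40* thus had a log2 fold change of -0.23 ± 0.42 (SE, edgeR FDR of 1), with an interval from 0.478-fold to 1.51-fold, and 0.24 without DZC replicate 2.

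The output factors *DBP* (ENSBTAG00000006754) and *TEF* (ENSBTAG00000016580) belong to the PAR bZIP family. *DBP*, usually among the most strongly rhythmic of clock-controlled genes, was at 35.0 and 46.2 CPM in SZCs and at 52.4 and 19.9 CPM in DZCs. As with *BHLHE40*, the SZC values lay between the DZC values, but here DZC replicate 1 was the highest. For *DBP* the log2 fold change was 0.17 ± 0.53 (SE, edgeR FDR of 1), with an interval from 0.544-fold to 2.32-fold. It was 1.03 without DZC replicate 1, where *DBP* passed together with *PER1* (edgeR FDR of 0.0277), -0.35 without DZC replicate 2 and -0.05 without SZC replicate 2. *TEF* was at 11.9 and 20.9 CPM in SZCs and at 10.6 and 10.8 CPM in DZCs. Its zones did not overlap, but SZC replicate 1 was only just above the DZC libraries. The zones differed by 0.61 ± 0.46 (SE) on the log2 scale, or 1.53-fold with an interval from 0.815-fold to 2.88-fold and an edgeR FDR of 0.867, and the log2 value was 0.96 without SZC replicate 1 and 0.15 without SZC replicate 2.

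**Figure D2:**
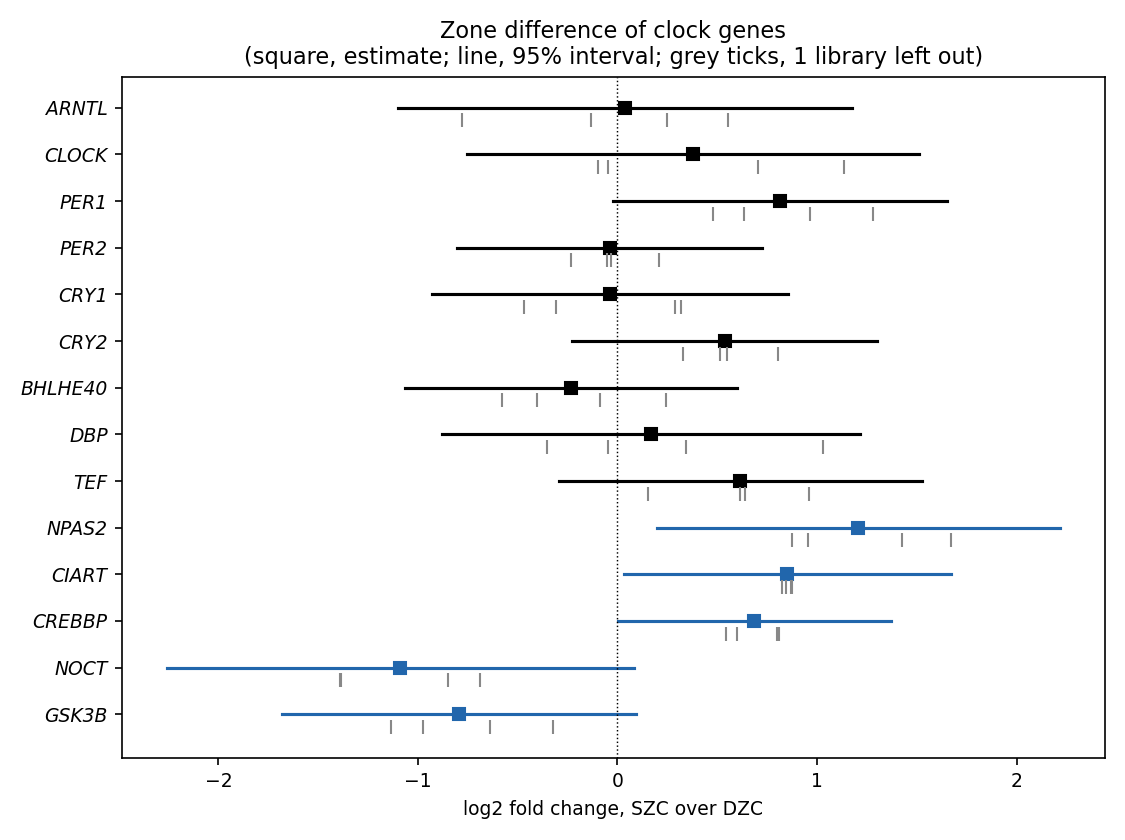
Log2 fold change of SZCs over DZCs (horizontal axis) for the 9 clock genes in black and 5 other genes of the clock pathway in blue, with a square at the estimate, a line for the 95% interval and grey ticks for the estimates with 1 library left out. The intervals of all 9 clock genes include 0, and only *PER1*, *CRY2* and *TEF* keep every tick above 0 among them.

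In most clock genes, as in most of all genes tested, a replicate difference was larger than the zone difference. On the scale of log2(CPM + 0.5), the larger of the 2 replicate differences exceeded the difference between the zone means in 7 of the 9 clock genes, against 73.1% of all genes tested. The exceptions were *PER1* and *CRY2*. This comparison favours the replicates, since it sets the larger of 2 differences between single libraries against a difference between means. The median difference between SZC replicates was 0.39 for the clock genes and 0.23 for all genes tested. Between DZC replicates it was 0.62 for the clock genes and 0.52 for all genes tested, and between the zones it was 0.31 for both. The largest SZC difference was that of *ARNTL*, lower in replicate 2 by a difference of -1.27, a size that 2.41% of all genes tested reached. The largest DZC difference was that of *DBP*, which was 2.63-fold higher in replicate 1, and 10.1% of all genes tested differed by as much there. *CLOCK* was higher in replicate 2 of both zones, 1.69-fold in SZCs and 2.33-fold in DZCs. *ARNTL* and *CRY1* were lower in replicate 2 of both zones. In all, 5 of the 9 clock genes deviated in the same direction in replicate 2 of both zones, against 64.6% of all genes tested. The dividing cell and hypertrophic marker sums given above also differed between the DZC libraries, and whether they bear on *DBP*, *CLOCK* or *BHLHE40* was not tested.

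**Figure D3:**
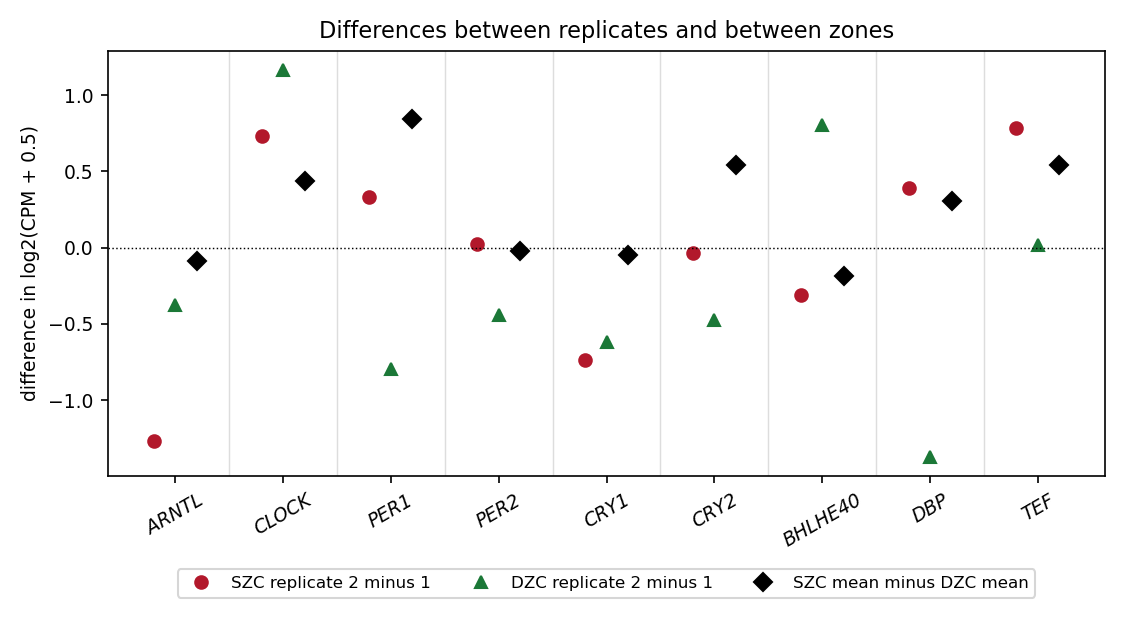
Differences in log2(CPM + 0.5) (vertical axis) for each of the 9 clock genes, between the replicates of SZCs (red circles), between the replicates of DZCs (green triangles) and between the zone means (black diamonds). For 7 of the genes a replicate difference is larger than the zone difference.

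*ARNTL* peaks at about the opposite time of the daily cycle to several genes that its protein drives, such as *PER1* and *DBP*, while *CRY1* peaks later than these. The ratio of *ARNTL* to its target genes was taken within each library, where it does not depend on scaling between libraries. The ratio to the mean of the 6 targets among the counted clock genes (*PER1*, *PER2*, *CRY1*, *CRY2*, *DBP* and *TEF*) was -0.49 on the log2 scale in SZC replicate 1 and -1.95 in SZC replicate 2. It was -0.87 in DZC replicate 1 and -0.63 in DZC replicate 2. The DZC values fell between the SZC values, and the zone means differed by -0.47 (exact two-sided permutation test, p = 1, where 2 libraries against 2 allow no p below 0.333). SZC replicate 2 had the lowest ratio of *ARNTL* to each of the 6 targets and to *CLOCK*, 7 of 7 ratios, all of which share its low *ARNTL* count of 151. Against *BHLHE40* the lowest ratio was instead in DZC replicate 2, at -4.53 compared with -4.35 in SZC replicate 2. With *PER1*, *PER2* and *DBP* as the only targets the zone difference was -0.48. Without SZC replicate 2 the zone difference was 0.26, and with each of the other libraries left out it lay between -1.19 and -0.35. The ratio of *ARNTL* to *CLOCK* was 0.58 and 0.89 in replicate 1 of SZCs and DZCs and -1.50 and -0.71 in replicate 2. These ratios were not divided by transcript length, so they compare libraries and not the abundance of one gene against another.

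**Figure D4:**
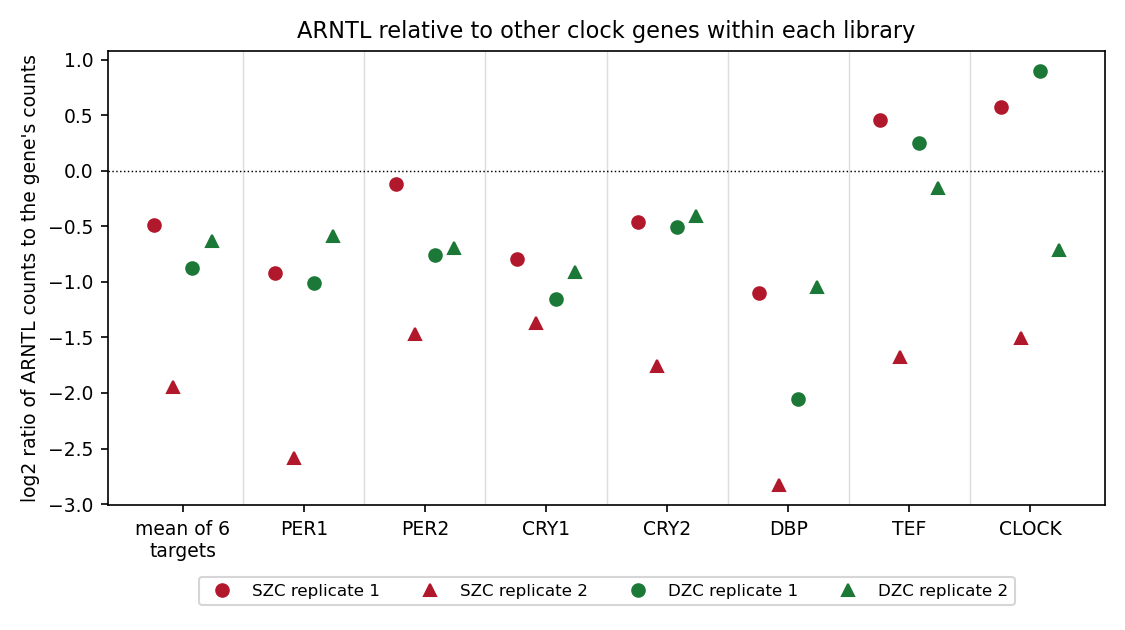
Log2 ratio of *ARNTL* counts to those of each gene named below the axis (vertical axis), and to the mean of the 6 target genes at the left, with SZCs in red, DZCs in green, circles for replicate 1 and triangles for replicate 2. SZC replicate 2 is the lowest point in all 8 columns, the mean, *PER1*, *PER2*, *CRY1*, *CRY2*, *DBP*, *TEF* and *CLOCK* (*BHLHE40* is not plotted).

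Among the further genes of the clock pathway, 40 are reported here, of which 39 had a row and 36 were kept by the filter on low counts. Of these 36, 2 were at an unadjusted p under 0.05, where 9.09% of all genes tested were, and 0 passed the FDR threshold by edgeR's exact test, its quasi-likelihood test or DESeq2. Their median log2 fold change was 0.10, with 22 above 0 and 14 below. In 9 of the 36 both SZC libraries lay above both DZC libraries and in 6 the reverse held, against 21.0% and 20.5% of all genes tested.

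The 5 smallest p-values among these 36 belonged to *NPAS2*, *CIART*, *CREBBP*, *NOCT* and *GSK3B*. *NPAS2*, which can stand in for CLOCK as the partner of ARNTL, was at 15.0 and 10.9 CPM in SZCs and at 4.11 and 7.08 CPM in DZCs, or 1.21 ± 0.52 (SE) on the log2 scale with an edgeR FDR of 0.333. Without DZC replicate 2 it was 1.67, with an edgeR FDR of 0.00233, in the fit that called 20.7% of all genes. With any of the other 3 libraries left out *NPAS2* lay between 0.88 and 1.42, with an edgeR FDR of at least 0.299. *CIART*, a repressor of the ARNTL and CLOCK pair, had close replicates in both zones, at 14.04 and 14.5 CPM in SZCs and 8.02 and 7.80 CPM in DZCs. The log2 difference of 0.85 ± 0.42 (SE) had an edgeR FDR of 0.518 and moved little on leaving out any 1 library, from 0.83 to 0.88. *CREBBP*, a histone acetyltransferase that serves many transcription factors besides those of the clock, was at 160 and 133 CPM in SZCs and at 85.1 and 97.3 CPM in DZCs, or 0.69 ± 0.35 (SE) on the log2 scale with an edgeR FDR of 0.558. *NOCT*, a rhythmic enzyme of the clock's output, was lower in both SZC libraries, at 2.27 and 3.32 CPM against 7.40 and 4.53 CPM in DZCs, or -1.09 ± 0.60 (SE) on the log2 scale with an edgeR FDR of 0.658. *NOCT* was at -0.69 without DZC replicate 1 (edgeR FDR of 0.671) and at -1.39 without DZC replicate 2 (edgeR FDR of 0.0432). *GSK3B*, a kinase that phosphorylates several clock proteins and acts in many other pathways, was at 13.9 and 11.1 CPM in SZCs and at 15.8 and 27.6 CPM in DZCs. Both DZC values were the higher, and SZCs over DZCs came to -0.79 ± 0.45 (SE) on the log2 scale with an edgeR FDR of 0.684. For the same gene, without DZC replicate 1, the value was -1.14 with an FDR of 0.0104 in the edgeR test, and without DZC replicate 2 it was -0.32 with an FDR of 0.556.

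With 2.93% of all genes passing, groups of 2 to 8 genes would hold few calls or none, and the counts by role are given only as a record. By role, 0 of the 3 activators tested passed, 0 of the 7 *PER*, *CRY* and associated repressors, 0 of the 2 *BHLHE40* and *BHLHE41* genes, and 0 of the 3 PAR bZIP genes tested. None of the 8 kinases tested passed, nor of the 6 genes of PER and CRY turnover, the 8 cofactors or the 5 output genes, with smallest FDR values of 0.684, 0.952, 0.558 and 0.658 in that order. *NR1D1* (REV-ERBα), which represses *ARNTL* and is itself switched on by it, was at 27.7 and 48.1 CPM in SZCs and at 29.9 and 20.1 CPM in DZCs, and was the clock gene closest to *TEF* over the 4 libraries (Pearson r = 0.89 on log2 levels). *CRY2* was closest to *PER1* and *PER1* to *CRY2* (r = 0.97), and *DBP* was closest to *PER2* (r = 0.91). For *ARNTL* (r = 0.96) and *CRY1* (r = 0.99) the closest was *BTRC*, for *CLOCK* it was *CSNK1E* (r = 0.97), for *PER2* it was *HDAC3* (r = 0.97) and for *BHLHE40* it was *FBXL21* (r = 0.92). Each is the highest r among the clock genes tested, over only 4 libraries, and for each of the 9 between 47 and 447 of all genes tested (0.366% to 3.48%) were at least as close, so these values are a description.

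Levels of other genes that glucocorticoid or cAMP signals induce are given as a record, and the signals themselves were not measured. Of 7 glucocorticoid-induced genes, 2 passed towards SZCs, and of 8 tested cAMP and CREB-induced genes 3 did, with 0 towards DZCs in either list by edgeR's exact test. Of all genes tested, 2.23% passed towards SZCs. Those that passed were *PDK4* (13.4-fold) and *DUSP1* (2.93-fold), and the orphan receptor genes *NR4A1* (2.82-fold), *NR4A2* (4.002-fold) and *NR4A3* (5.88-fold). Of the cAMP and CREB-induced genes that did not pass, *ATF3* was higher in both DZC libraries, at 35.2 and 40.9 CPM in SZCs against 88.3 and 48.9 CPM in DZCs (log2 fold change -0.85, edgeR FDR of 0.51). The zones overlapped for *CREM* (log2 fold change -0.22), *FOS* (0.83), *FOSB* (0.58) and *EGR1* (2.06). The glucocorticoid-induced genes that did not pass were *FKBP5* (log2 fold change -0.18), *SGK1* (0.17), *TSC22D3* (0.36), *MT2A* (0.66) and *ZBTB16* (1.14). Of these, *TSC22D3* and *ZBTB16* were higher in both SZC libraries and the zones overlapped for the others. Whether these genes and *PER1* move together was not tested.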

How the data were processed

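RNA was sequenced from 2 libraries of SZCs and 2 of DZCs, made with a kit for very small RNA amounts and read from 1 end. The authors aligned the reads with STAR 2.5.2b to the bovine Ensembl build UMD 3.1, counted them per gene without regard to strand and deposited raw counts. Reads of genes that overlap on opposite strands therefore cannot be separated. A deposited table of the authors' own log2 fold changes and FDR values was used only for gene names, and 8 blank names were filled from it. ATAC-Seq was not analysed here. Gene positions, lengths and sequences in the authors' build were not used here.

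Libraries were assigned by their labels. The raw counts entered edgeR 4.0.16 (run in R 4.3.3) with its default filter, TMM scaling, tagwise dispersion and the exact test, and p-values were adjusted by Benjamini–Hochberg over all 12857 genes tested. Standard errors and 95% intervals follow from the negative binomial model, and with 2 libraries per zone they rest on dispersion shared between genes. The alternatives were the quasi-likelihood test, with and without the replicate number as a block, DESeq2 1.42.0, DESeq2 size factors, library totals, dropping the filter, keeping genes above 1 CPM in 2 or more libraries, and each library left out in turn. A check for duplicated libraries found none, since the counts of a zone's replicates differed by more than counting error (chi-square per degree of freedom 50.5 in SZCs and 245 in DZCs), which says nothing further about their spread. The scripts were tested on simulated data. The ratio to *ARNTL* used a prior count of 0.5.

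A gene of the clock list is not reported here, and counts over that list leave it out. The genes named are the 9 members, the closest clock gene to each member, and marker genes of zones and cell types. Also named are the clock genes outside the members that passed or, with fewer than 5 passing, the 5 with the smallest p. *NR1D1*, the members of the signal lists and the marker genes were named after their values were seen. The members and lists were chosen with earlier results of these data known.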

Additional observations from a re-analysis of the deposited data

How the results depend on the processing

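With all libraries kept, 60 of the 63 log2 fold changes of the 9 clock genes under 7 alternatives kept the direction and side of the threshold given above, and none of the 9 passed an FDR of 0.05 under these 7. The exceptions were *ARNTL* in the quasi-likelihood fit with the replicate block (log2 fold change -0.0923), and *PER2* (0.31) and *CRY1* (0.32) with libraries scaled by their totals alone, a scaling that shifted the median of all genes by 0.30. Relative to that median the last pair were at 0.05 and 0.06. With totals alone both SZC libraries were above both DZC libraries in 5 of the 9, against 3, and 86.7% of called genes were higher in SZCs, against 76.1%. The share of all genes tested without overlap was not taken under this scaling, which moved the median of all genes towards SZCs. Same-numbered libraries deviated together from their zone means (correlation 0.42 across 12857 genes), but the labels give them only a number. With the replicate block 347 genes were called, against 377, with 0 of the 9 clock genes and 0 of the pathway genes reported here. The quasi-likelihood test without the block called 0 genes, although 1126 had an unadjusted p under 0.05.

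Leaving out each library in turn, with the lone library assumed to vary like the other zone, gave 58 to 2725 called genes, 0 to 2 clock genes and 0 to 7 of the pathway genes reported here, and 4 to 5 clock genes without overlap. The log2 fold changes then ranged from -0.78 to 0.55 for *ARNTL*, -0.10 to 1.13 for *CLOCK*, 0.48 to 1.28 for *PER1*, -0.23 to 0.21 for *PER2*, -0.47 to 0.32 for *CRY1*, -0.58 to 0.24 for *BHLHE40*, -0.35 to 1.03 for *DBP*, 0.33 to 0.80 for *CRY2* and 0.15 to 0.96 for *TEF*. The ratio of *ARNTL* to its targets was computed with a prior count of 2 and with *PER1*, *PER2* and *DBP* alone as further alternatives, and moved by less than the spread between replicates. The cause of these changes was not tested. The counts of clock genes with SZC libraries above DZC libraries were added after the data were seen. So were the values of the 5 further clock genes under these alternatives.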
